A study of Mus musculus with 6 samples.

Results

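The genes described here are 10 genes of the actin cytoskeleton and of serum response factor, Actb, Actg1, Vcl, Zyx, Flna, Tpm1, Actn1, Myl9, Tagln2 and Srf, taken by their symbols from a table of 33924 gene symbols. RNA of E14 mouse embryonic stem cells, an established line, was sequenced in 3 Control and 3 Rif1-KO libraries, from 200 ng of total RNA each. Rif1 binds chromatin and acts in the timing of DNA replication, in break repair and in gene silencing. All 6 libraries carry the same protocol in the labels, with growth in 2i medium on gelatin and 0.1 µM 4-hydroxytamoxifen, an estrogen receptor ligand, given for 2 days and withdrawn for 1 day. Inside the tables, however, the Control columns are named with 2i and the Rif1-KO columns with TAM, so a difference in drug or medium cannot be told apart from the genotype. How Rif1 was disrupted, and whether the Rif1-KO cells are 1 clone, is not given in the sources used here.

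Actin is the protein of the microfilaments that give a cell its shape, its tension and its grip on the substrate. Srf encodes serum response factor, which binds a short DNA element called the CArG box in the promoters of many cytoskeletal genes and of immediate early genes. Cofactors of the MRTF family are held by unassembled actin and released when filaments form, so that this branch reads the state of the cytoskeleton, while cofactors of the TCF family (Elk1, Elk3 and Elk4) are switched by ERK signalling. Embryonic stem cells in 2i, a medium with a MEK inhibitor and a GSK3 inhibitor, grow as compact domed colonies.

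Promoter windows were searched for exact matches to the element that serum response factor binds. Of the 10 genes, 9 had a window in the RefSeq table (GRCm38.p6, from 250 bases before to 50 bases after the gene's start), and Actb had none. The CArG box is a motif of 10 letters that reads as the same motif on both strands. It was found in 4 of the 9 windows, those of Srf, Actg1, Vcl and Myl9, and in 1.63% of all 32851 windows. It was not found in those of Flna, Actn1, Tpm1, Tagln2 and Zyx. Inexact matches and sites outside the windows were not looked for, so these genes may still carry the element. The 4 stretches below show the element in its surroundings, 5′ to 3′ on the gene's own strand, with the CArG box in capitals. They lie at chr17:46556170-46556289 (minus strand) for Srf, chr11:120348531-120348630 (minus) for Actg1, chr14:20929148-20929225 (plus) for Vcl and chr2:156775258-156775357 (plus) for Myl9, all before the start of the gene.
Srf: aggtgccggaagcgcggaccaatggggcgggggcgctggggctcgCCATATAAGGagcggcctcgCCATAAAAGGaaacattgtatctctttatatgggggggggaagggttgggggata
Actg1: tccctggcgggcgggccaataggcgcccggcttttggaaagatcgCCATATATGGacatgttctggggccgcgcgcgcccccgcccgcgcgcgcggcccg
Vcl: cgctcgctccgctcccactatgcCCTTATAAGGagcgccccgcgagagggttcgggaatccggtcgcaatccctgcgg
Myl9: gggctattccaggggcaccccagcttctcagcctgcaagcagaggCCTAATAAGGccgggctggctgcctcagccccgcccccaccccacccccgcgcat
The Srf window holds 2 CArG boxes, which begin 82 and 62 bases before the start. The Actg1 box begins 90 bases, the Vcl box 227 bases and the Myl9 box 161 bases before it. A match describes these letters and does not show binding.

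Of the 10 genes, 8 rose in the libraries labelled Rif1-KO, none fell, Actn1 did not pass the test and Myl9 had too few reads to be tested. Expression is given as CPM, the deposited count scaled to a common library size with TMM factors. Rose and fell are used for genes that edgeR's quasi-likelihood test called at 0.05 after Benjamini-Hochberg adjustment over 14250 tested genes. In that test 26.1% of tested genes rose and 24.8% fell, 50.9% in all, so a call alone is common in these libraries. A rise of at least 1.5-fold was called for 10.5% of tested genes and for 5 of the 10 genes here, Actg1, Flna, Tagln2, Vcl and Zyx. The libraries of the groups did not overlap, with the higher values in Rif1-KO, at 29.4% of tested genes and at 8 of the 10 genes here. The 9 tested genes had a median log2 fold change of 0.67, against 0.00347 over all tested genes. Summed over the 10 genes, expression was between 2809 and 2857 CPM in the Control libraries and between 4274 and 4376 CPM in the Rif1-KO libraries. Their share of all counts went from 0.281% ± 0.00090 to 0.434% ± 0.0060 (mean ± SD of 3 libraries; two-sided exact permutation p = 0.1, which is the lowest that 3 against 3 libraries allow). In bulk libraries, fewer cells of a type and less RNA per cell cannot be told apart.

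**Figure D1:**
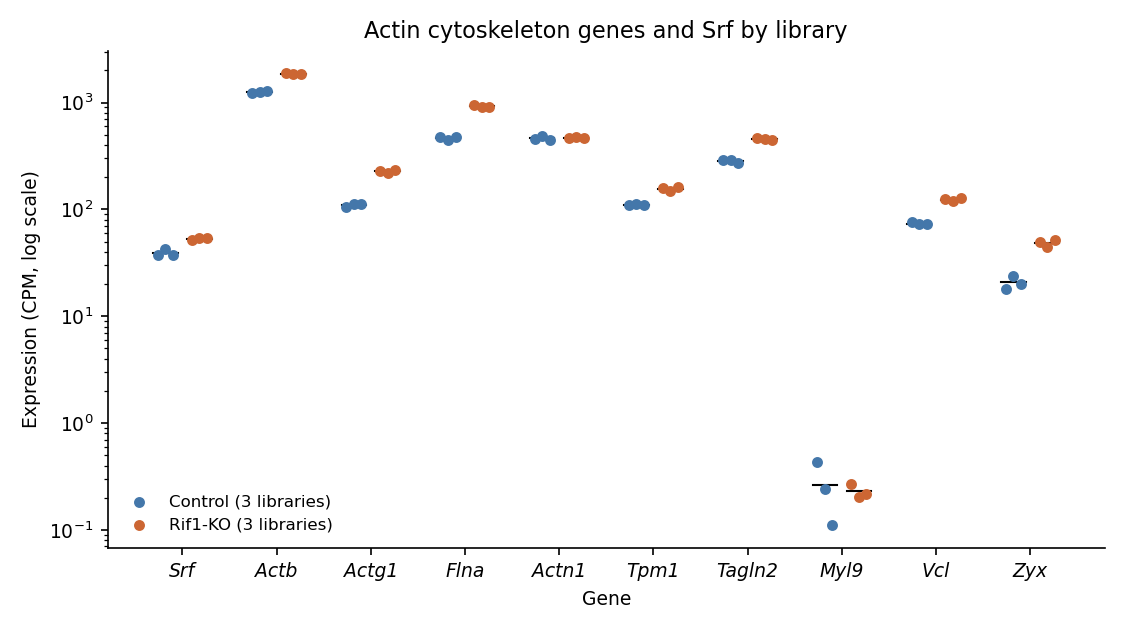
Expression of each of the 10 genes in CPM on a log axis, with 1 point per library (Control in blue, Rif1-KO in orange) and a bar at the mean of 3 libraries. The points of the groups are apart for 8 genes, overlap for Actn1, and lie below 1 CPM for Myl9.

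Library facts that touch these values are few. Total counts ran from 8383632 to 10980777 per library. The correlation of log2 CPM across genes was between 0.9936 and 0.9957 for libraries of the same group. Rif1 itself, counted over the whole gene, stood at 673, 657 and 700.1 CPM in Control and at 602, 604 and 664 CPM in Rif1-KO (log2 fold change −0.12 ± 0.05, adjusted p = 0.0509 by edgeR; past the threshold under 9 of 15 alternatives). Reads were summed over all of its exons, so the loss of a small part of it could go unseen. These counts do not settle whether Rif1 was disrupted. The 10 embryonic stem cell markers tested were mixed, with 4 that rose, 3 that fell and 3 not called, beside 26.1% and 24.8% of all tested genes that rose and fell. The level of Sox2 fell from 683 ± 31.8 to 469 ± 19.4 CPM and Fgf4 from 490 ± 19.98 to 382 ± 19.3 CPM, while Dppa5a rose from 804 ± 117 to 1108 ± 144 CPM and Klf2 from 219 ± 21.2 to 279 ± 21.3 CPM (SD, n = 3). With members going both ways, the summed level overlapped between the groups, from 5584 to 5825 CPM in Control and from 5460 to 5870 CPM in Rif1-KO.

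Srf itself, the transcription factor of the group, rose modestly. Its level was 37.5, 42.9 and 37.6 CPM in Control and 51.7, 53.9 and 53.8 CPM in Rif1-KO. The highest Control library lay below every Rif1-KO library, and the spread was wider in Control. From a mean of 39.3 ± 3.07 to one of 53.1 ± 1.26 CPM (SD, n = 3), the log2 fold change was 0.44 ± 0.07 (SE), and the adjusted p was 2.2e-05 by edgeR. Of the tested genes, 84.4% had a smaller log2 fold change than Srf.

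Most cofactors of serum response factor did not pass the test. Of 6 listed, 5 were tested, of which Elk3 fell and 4 did not pass, with a median log2 fold change of 0.03. Mkl1, the older symbol of the MRTF-A gene, stood at 26.5, 30.3 and 27.5 CPM in Control and at 28.6, 29.2 and 27.8 CPM in Rif1-KO (log2 fold change 0.03 ± 0.08, adjusted p = 0.805 by edgeR). Mkl2, which encodes MRTF-B, stood at 37.9 ± 1.32 CPM in Control and at 40.8 ± 2.46 CPM in Rif1-KO (0.11 ± 0.07, adjusted p = 0.21 by edgeR). The libraries of both groups overlapped for these MRTF genes.

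Among the TCF genes, Elk3 fell from 17.6 ± 0.69 to 13.9 ± 0.78 CPM (SD of 3 libraries; log2 fold change −0.34 ± 0.10, adjusted p = 0.00774 by edgeR), with every Rif1-KO library below every Control library. Elk1, at 47.2 and 44.98 CPM, and Elk4, at 28.6 and 30.2 CPM, did not pass, with adjusted p values of 0.369 and 0.503 by edgeR. Myocd, the cofactor of heart and smooth muscle, had 2 counts over the Control libraries and 15 over the Rif1-KO libraries, which gives a depth-scaled ratio of 6.61 (exact 95% interval 1.54 to 59.5, counting error only), and was below the filter on low counts.

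Both cytoplasmic actin genes rose, with the larger fold change for Actg1. Actb, the beta-actin gene and the most expressed of the group, stood at 1239, 1266 and 1277 CPM in Control and at 1878.5, 1858 and 1865 CPM in Rif1-KO. Its libraries lay close together within each group, with a coefficient of variation of 1.55% in Control and 0.562% in Rif1-KO. The means of 1261 ± 19.6 and 1867 ± 10.5 CPM (SD, n = 3) gave a log2 fold change of 0.57 ± 0.04 and an adjusted p of 2.19e-09 by edgeR. Actg1, the gamma-actin gene, stood at 105, 113 and 113 CPM in Control and at 229, 217 and 235 CPM in Rif1-KO. The Rif1-KO libraries all lay far above the Control libraries, with a log2 fold change of 1.04 ± 0.05 and an adjusted p of 1.84e-12 by edgeR.

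The ratio of Actb to Actg1 counts within a library, which needs no scaling, was 11.8, 11.2 and 11.3 in Control and 8.19, 8.56 and 7.92 in Rif1-KO. The groups did not overlap, and the log2 ratio differed by −0.47, from 3.51 ± 0.04 to 3.04 ± 0.06 (SD of 3 libraries; two-sided exact permutation p = 0.1, the lowest this design can give). Actg1 shared 37.4% of its 50-base stretches with 23 other genes in the GENCODE M21 transcripts, chiefly processed pseudogenes, and Actb shared 9.12% with 18. The count of Actg1 is therefore uncertain, since the sources used here do not say how the counting treated reads with several matches. Gm12715, the pseudogene that shares the most of Actg1 (33.2%), had 45 counts over the 6 libraries.

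**Figure D2:**
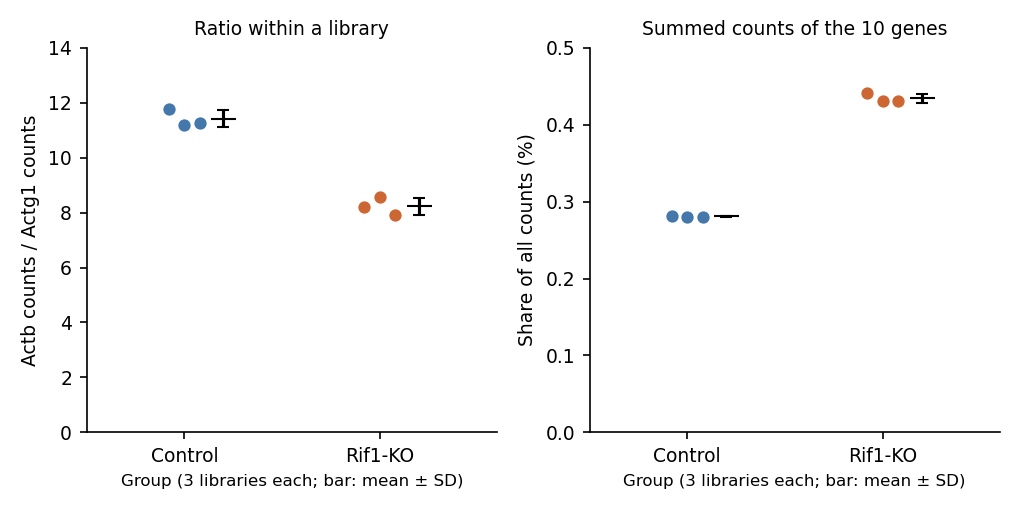
Left, Actb counts divided by Actg1 counts in each library. Right, the share of all counts (percent) that falls on the 10 genes. Points are libraries, bars are mean ± SD of 3, and both axes start at 0. The ratio was lower and the share was higher in each of the 3 Rif1-KO libraries than in any Control library.

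The muscle actin genes were hardly read. Acta2, the smooth muscle alpha-actin gene, had 17 counts over the Control libraries and 11 over Rif1-KO, a ratio of 0.57 (exact 95% interval 0.241 to 1.29, counting error only). Acta1, of skeletal muscle, had 5 and 10 counts, and Actc1, of heart, had 3 and 5 counts. Actg2 and Actbl2 had 0 counts in all 6 libraries, which allows a level of up to 0.271 CPM in the deepest library and 0.3645 CPM in the shallowest (3 counts, counting error only). None of these genes passed the filter on low counts, so none was tested.

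Among the crosslinkers, the filamin and alpha-actinin members differed. Flna, which encodes filamin A and joins filaments into a network, stood at 476, 446 and 474 CPM in Control and at 956, 907 and 917 CPM in Rif1-KO. The lowest Rif1-KO library was well above the highest Control library, with means of 465 ± 16.5 and 927 ± 25.7 CPM (SD, n = 3). The log2 fold change was 0.99 ± 0.05, with an adjusted p of 1.21e-12 by edgeR. Actn1, which encodes alpha-actinin-1, a bundling protein that links filaments to adhesions, stood at 455, 489.9 and 444 CPM in Control and at 462, 474 and 467 CPM in Rif1-KO. All Rif1-KO libraries lay inside the Control range, and the log2 fold change of 0.01 ± 0.05 had an adjusted p of 0.815 by edgeR. The sign of this value turned without Control replicate 3 (−0.017), and 8.15% of the exon bases of Actn1 overlap antisense genes in GENCODE M21.

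Paralogues of these crosslinkers were looked at as well, most of them named with their values already known. Flnc rose from 8.21 ± 1.68 to 25.8 ± 2.03 CPM (SD of 3 libraries; log2 fold change 1.67 ± 0.12). Among the alpha-actinin genes Actn4 rose by 0.36 ± 0.05 on the log2 scale, Actn3 fell by 1.35 ± 0.21 from a low level of 5.27 CPM, and Actn2 did not pass (adjusted p = 0.432 by edgeR). Over the list of 17 filament binders and crosslinkers, 8 rose, 2 fell and 7 did not pass, with a median log2 fold change of 0.18. For comparison, 26.1% of all tested genes rose and 24.8% fell. Msn, the gene of the membrane linker moesin, rose from 268 ± 14.2 to 405 ± 18.6 CPM, while its relatives Ezr (0.01 ± 0.05) and Rdx (0.05 ± 0.05) did not pass. Fscn1, which encodes the bundling protein fascin, was the other gene of the list that fell, from 449 to 341 CPM.

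Both filament-binding members rose. Tpm1, a tropomyosin gene whose product lies along the filament, stood at 110.3, 112 and 109 CPM in Control and at 160.0, 149 and 162 CPM in Rif1-KO. The Control libraries differed little (coefficient of variation 1.28%) and lay below all Rif1-KO libraries, with a log2 fold change of 0.51 ± 0.05 and an adjusted p of 5.37e-08 by edgeR. Tpm4 rose as well, from 112 ± 6.02 to 205 ± 11.6 CPM (SD, n = 3), whereas Tpm2 (0.05 ± 0.12) and Tpm3 (−0.10 ± 0.05) did not pass. A count over the whole gene does not separate the isoforms of Tpm1.

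Tagln2, which encodes transgelin-2, an actin-binding protein of non-muscle cells, stood at 292, 290.1 and 274 CPM in Control and at 465, 451 and 449 CPM in Rif1-KO. The groups were apart, with means of 285 ± 9.84 and 455 ± 8.45 CPM (SD over 3 libraries), a log2 fold change of 0.67 ± 0.05 and an adjusted p of 2.63e-10 by edgeR. Its smooth muscle paralogue Tagln was low, at 1.79 and 1.90 CPM, and its paralogue Tagln3 stood at 3.86 and 4.36 CPM. Neither passed, with adjusted p values of 0.808 and 0.488 by edgeR.

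Myl9, the regulatory light chain gene of contractile cells, was nearly silent. Its counts were 4, 2 and 1 in Control and 3, 2 and 2 in Rif1-KO. The sum was 7 in each group, a depth-scaled ratio of 0.881 with an exact 95% interval of 0.264 to 2.94 (counting error only), so a change within that interval was not detectable at this depth. Its promoter window holds a CArG box, as shown above.

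Other genes of nonmuscle myosin and of the small GTPases and kinases that act on it were well read, apart from Mylk. This kinase gene stood at 1.74 ± 0.294 CPM in Control and 1.55 ± 0.211 CPM in Rif1-KO, near the filter on low counts, and did not pass. Among 14 tested genes 11 rose, 1 fell and 2 did not pass, where 26.1% of all tested genes rose and 24.8% fell. The median log2 fold change of the 14 was 0.43. Rhob, a small GTPase gene, stood at 21.6, 21.4 and 22.3 CPM in Control and at 139, 151 and 124 CPM in Rif1-KO (log2 fold change 2.66 ± 0.08, adjusted p = 4.43e-16 by edgeR). Myh9, the main nonmuscle myosin heavy chain gene, rose from 548 ± 13.5 to 807 ± 22.2 CPM (SD, n = 3), and the essential light chain gene Myl6 from 88.4 ± 8.74 to 151 ± 9.16 CPM. Myh14 was the gene that fell, from 69.0 ± 4.31 to 36.8 ± 0.897 CPM.

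Both adhesion members rose. Vcl encodes vinculin, which ties integrin adhesions and cadherin junctions to actin. It stood at 75.8, 72.3 and 72.8 CPM in Control and at 124, 119 and 127 CPM in Rif1-KO. The groups were apart, with a log2 fold change of 0.75 ± 0.05 and an adjusted p of 3.91e-10 by edgeR. In GENCODE M21, 25.5% of the exon bases of Vcl overlap Ap3m1 on the other strand, and the strand setting of the counting is not given. Ap3m1 stood at 54.5 ± 3.12 and 51.5 ± 6.69 CPM, a difference that missed the threshold (adjusted p = 0.367 by edgeR).

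Zyx encodes zyxin, a LIM protein that gathers at adhesions and filaments under tension. It had the largest log2 fold change of the 9 tested genes. It stood at 17.9, 24.1 and 20.1 CPM in Control and at 49.5, 44.6 and 52.2 CPM in Rif1-KO. The Control libraries varied more than for any other tested member (coefficient of variation 14.9%), yet the highest was below the lowest Rif1-KO library. The log2 fold change was 1.24 ± 0.09, with an adjusted p of 1.16e-09 by edgeR, and 96.4% of tested genes had a smaller value. Epha1, which overlaps 4.38% of the exon bases of Zyx on the other strand, rose as well, from 6.03 to 9.40 CPM, and its part in the Zyx count was not tested.

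Of the partners of vinculin and zyxin at adhesions, 13 rose, 2 fell and 7 did not pass the test. They make a list of 22 tested genes, with a median log2 fold change of 0.23. The shares over all tested genes were 26.1% that rose and 24.8% that fell. Tln1, which encodes talin-1, the link between integrins and vinculin, rose from 201 ± 2.85 to 329 ± 9.47 CPM (SD of 3 libraries; log2 fold change 0.71 ± 0.04). The 2 genes that fell, named after their values were seen, were Tln2 and Enah. Tln2, the other talin gene, went from 113 ± 4.21 to 88.1 ± 4.16 CPM (−0.35 ± 0.05), and its groups did not overlap. Enah went from 462 ± 34.8 to 411 ± 28.1 CPM, and its libraries overlapped between the groups. Lasp1 rose from 315 ± 4.05 to 530.4 ± 9.13 CPM, Lpp, a relative of zyxin, from 97.7 ± 2.78 to 173 ± 11.6 CPM, and Tes, a LIM protein gene, from 13.1 ± 2.32 to 33.3 ± 1.10 CPM. Trip6 and Limd1, further LIM relatives of zyxin that were named after their values were seen, differed. Trip6 rose by 0.93 ± 0.10 on the log2 scale, and Limd1, at 25.0 and 22.7 CPM, did not pass (−0.13 ± 0.10, adjusted p = 0.278 by edgeR). Ilk and Lims2, 2 of the 13 that rose, met the filter on low counts in all libraries of Rif1-KO only.

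**Figure D3:**
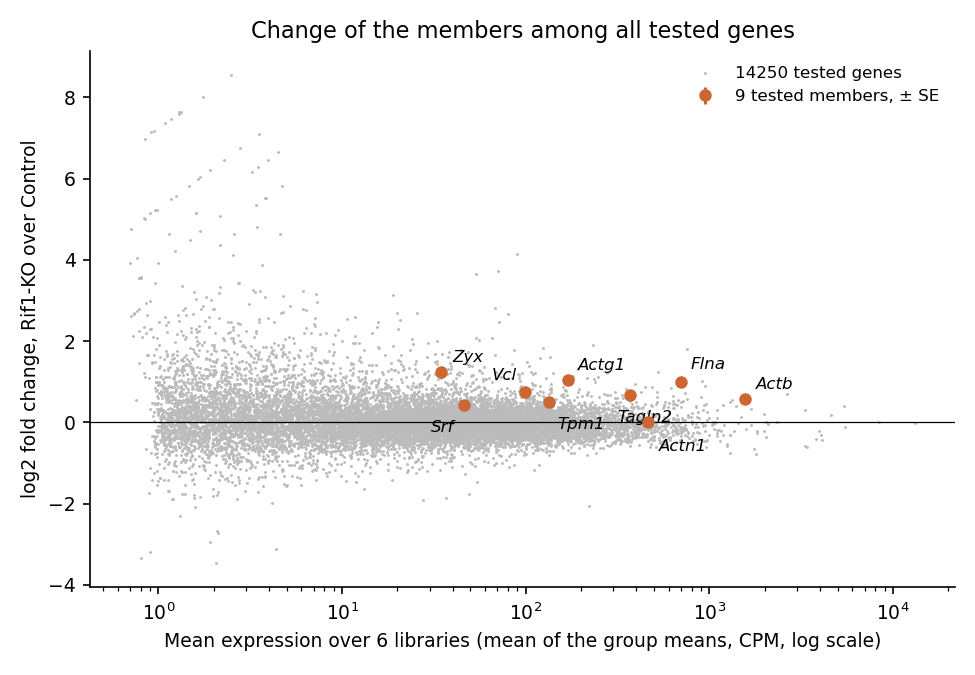
Log2 fold change (Rif1-KO over Control) against mean expression (CPM, log axis) for 14250 tested genes in grey and for the 9 tested genes of the group in orange, with bars of 1 SE that are often smaller than the point. Actn1 sits on the zero line and the other 8 lie between 0.44 and 1.24.

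Levels of different genes were compared per kilobase of exon, with lengths from GENCODE M21, which is not the annotation of the counting. In Control the order was Actb at 471 ± 7.31 CPM per kilobase, Tagln2 at 137 ± 4.73, Actn1 at 83.7 ± 4.30, Flna at 49.5 ± 1.75, Actg1 at 41.6 ± 1.72, Tpm1 at 17.01 ± 0.217, Srf at 13.6 ± 1.06, Vcl at 8.99 ± 0.231, Zyx at 3.84 ± 0.574 and Myl9 at 0.226 ± 0.139 (SD, n = 3). No neighbours in that order overlapped between their libraries. In Rif1-KO, Flna (98.6 ± 2.73) and Actg1 (85.5 ± 3.53) stood above Actn1 (84.5 ± 1.04), and the libraries of Actg1 and Actn1 overlapped. The order of the remaining genes was as in Control.

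Other known targets of serum response factor were taken from 2 lists, by the cofactor they are known for. Of 20 tested targets with MRTF cofactors, 14 rose, 6 did not pass and none fell, with a median log2 fold change of 0.71 against 0.00347 for all tested genes. Of the 14, 12 rose by at least 1.5-fold. Over all tested genes, 26.1% rose and 10.5% rose by at least 1.5-fold. Cnn1, Myh11 and Ankrd1, the other targets of the 23 listed, were too low to be tested. Their libraries overlapped between the groups. Cyr61, which encodes a secreted matrix protein, stood at 9.51, 9.23 and 9.85 CPM in Control and at 170.2, 165 and 171 CPM in Rif1-KO, a 17.65-fold difference (log2 fold change 4.14 ± 0.07, adjusted p = 1.05e-19 by edgeR). Ctgf, a related gene, went from 9.92 ± 0.66 to 132 ± 1.04 CPM (SD of 3 libraries; log2 fold change 3.73 ± 0.07). Both are also known targets of YAP with TEAD factors. Cnn2, a calponin gene, rose from 77.7 ± 2.30 to 147 ± 3.68 CPM and Cald1, the caldesmon gene, from 116 ± 9.98 to 246 ± 13.6 CPM. Thbs1, the thrombospondin-1 gene, named after its values were seen, rose from 0.661 ± 0.508 to 6.06 ± 1.34 CPM. Thbs1 and Fhl2 met the filter on low counts in all libraries of Rif1-KO only, so they could be tested only because they were high there. The other 12 of the 14 met it in both groups.

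The 6 targets that did not pass, named after their values were seen, include smooth muscle genes. Tagln, Smtn (46.5 and 47.6 CPM) and Des (33.5 and 37.5 CPM) are known for smooth muscle or other muscle, and Tpm2, Itga5 and Lima1 are the others. Lmod1, a leiomodin gene of smooth muscle, passed from 1.75 to 2.80 CPM with an adjusted p of 0.0314 by edgeR. That call was lost with DESeq2 (adjusted p = 0.129) and in edgeR when Control replicate 1 was left out (0.181), or replicate 2 (0.07) or 3 (0.0699) of Rif1-KO.

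The tested immediate early genes, known as targets with TCF cofactors, also rose. All 7 tested of 10 passed with higher values, with a median log2 fold change of 0.44, where 26.1% of all tested genes rose. A rise of at least 1.5-fold was called for 3 of the 7. Fosb, Egr2 and Egr3 were too low to be tested. Fosb had 3, 5 and 3 counts in Control and 1, 3 and 2 in Rif1-KO. Egr2 had 1, 1 and 3 counts in Control and 11, 11 and 7 in Rif1-KO, and Egr3 had 0, 0 and 0 in Control and 3, 0 and 0 in Rif1-KO. Fos, which encodes a subunit of the AP-1 factor, stood at 7.24, 6.93 and 6.53 CPM in Control and at 17.98, 16.7 and 13.3 CPM in Rif1-KO (log2 fold change 1.22 ± 0.14, adjusted p = 3.28e-07 by edgeR). Egr1 rose from 0.990 ± 0.300 to 3.43 ± 0.244 CPM (SD, n = 3), a low level that passed the filter on low counts through the Rif1-KO libraries. Nr4a1, an orphan nuclear receptor gene, rose by 0.60 ± 0.06 and Mcl1, which encodes a survival factor, by 0.43 ± 0.04 on the log2 scale.

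Genes of filament assembly and turnover had smaller medians. Of 25 tested nucleator genes (the Arp2/3 complex, the WAVE complex and formins), 12 rose, 3 fell and 10 did not pass. Their median log2 fold change was 0.13. Over all tested genes, 26.1% rose, 24.8% fell and 10.5% rose by at least 1.5-fold. Among the 25 nucleator genes, 1 rose by at least 1.5-fold. This was Daam1, a formin gene, which went from 56.8 ± 2.63 to 102 ± 7.23 CPM (SD, n = 3). Actr2 and Arpc5, of the Arp2/3 complex, rose by 0.36 ± 0.05 and 0.33 ± 0.07 on the log2 scale, and Wasf3 fell by 0.53 ± 0.05.

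Of 21 tested turnover genes, 11 rose, 3 fell and 7 did not pass, where 26.1% of all tested genes rose and 24.8% fell. The median log2 fold change of the 21 was 0.18. Tmsb4x, which encodes the monomer-binding thymosin beta-4, stood at 42.5, 38.2 and 35.8 CPM in Control and at 143, 144 and 115 CPM in Rif1-KO (log2 fold change 1.79 ± 0.08, adjusted p = 8.42e-13 by edgeR). Gsn, the gene of the severing protein gelsolin, rose from 6.81 ± 0.75 to 24.7 ± 2.58 CPM, and Wdr1 and Dstn, which act in filament disassembly, rose by 0.70 ± 0.05 and 0.60 ± 0.05 on the log2 scale. The 3 turnover genes that fell, named after their values were seen, were Pfn1, Twf1 and Twf2. Pfn1, a profilin gene, went from 310 ± 24.8 to 274 ± 2.39 CPM. Twf1 went from 145 ± 6.92 to 131 ± 4.07 CPM and Twf2 from 51.8 ± 1.13 to 40.5 ± 3.42 CPM. Cfl1, the main cofilin gene, was picked with its values known, and its means of 387 and 388 CPM did not differ past the threshold (adjusted p = 0.947 by edgeR).

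**Figure D4:**
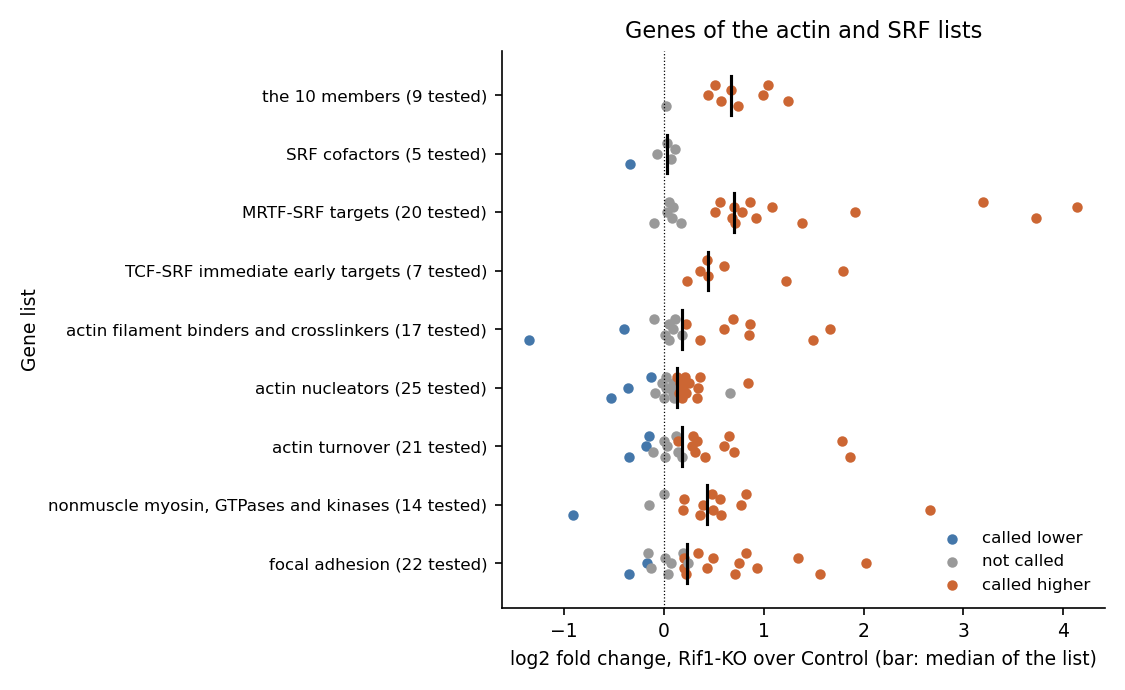
Log2 fold change (Rif1-KO over Control) of each tested gene in the actin and SRF lists, 1 row per list, with genes called higher in orange, called lower in blue and not called in grey, and a black bar at the median. Among the lists drawn, the medians of the 9 tested genes of the group (0.67) and of the MRTF-SRF targets (0.71) lie farthest to the right, and that of the SRF cofactors (0.03) lies near zero. Lists of cell type markers are not drawn. Their medians were 1.58 (trophectoderm), 0.90 (primitive endoderm), 0.28 (fibroblast), 0.09 (smooth muscle) and −0.0057 (embryonic stem cell).

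Markers of other cell types that express these cytoskeletal genes moved in part. Of 6 trophectoderm markers tested, 4 rose, 1 fell and 1 did not pass, where 26.1% of all tested genes rose and 24.8% fell. The summed level of the 9 markers in the table went from a range of 92.3 to 94.9 CPM in Control to a range of 287 to 306 CPM in Rif1-KO. Cdx2, which defines that lineage, had 0 counts in all 6 libraries. Gata3 and Elf5, also on the list, were too low to be tested. Gata3 had 2, 3 and 3 counts in Control and 10, 12 and 13 in Rif1-KO. Elf5 had 3, 1 and 0 counts in Control and 1, 0 and 1 in Rif1-KO. Krt19, a keratin gene, rose from 7.89 ± 1.09 to 98.9 ± 3.92 CPM (SD, n = 3), Krt8 from 22.5 ± 2.20 to 74.2 ± 7.66 CPM and Krt18 from 25.8 ± 1.36 to 69.9 ± 0.481 CPM. Lgals3 also rose, with means of 5.04 in Control and 25.8 in Rif1-KO. The marker that went down was another keratin gene, Krt7. It stood at 22.9 ± 1.03 CPM in Control and at 16.1 ± 1.48 CPM in Rif1-KO, and its groups did not overlap. Eomes, at 8.58 and 9.63 CPM, was the marker that did not pass. Of 8 primitive endoderm markers tested, 6 rose and 2 did not pass. The 10 markers in the table had a summed level of 686 to 698 CPM in Control and 952.5 to 985 CPM in Rif1-KO. Lama1 and Sparc carried much of this sum. Lama1, at 347 ± 10.2 and 357 ± 10.9 CPM, did not pass, and Sparc rose from 269 ± 10.02 to 516 ± 9.59 CPM, which makes up most of the rise in the sum. Dab2 rose from 3.87 ± 0.65 to 13.1 ± 1.20 CPM (log2 fold change 1.76 ± 0.15). The lineage factor genes Gata6 and Sox17 rose at low levels, Gata6 from 1.54 to 2.85 CPM (0.86 ± 0.25, adjusted p = 0.00729 by edgeR) and Sox17 from 0.490 to 1.54 CPM (1.61 ± 0.39, adjusted p = 0.00151 by edgeR). Sox17 met the filter on low counts in all libraries of Rif1-KO only. Its relative Sox7, too low to be tested, went the other way, with 3, 8 and 3 counts in Control and 1, 2 and 0 in Rif1-KO. The part of such cells in the rise of the 8 genes was not tested.

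Smooth muscle and fibroblast markers had overlapping sums. The 8 smooth muscle markers summed to 81.9 to 97.4 CPM in Control and 90.2 to 98.3 CPM in Rif1-KO. Of 5 tested, 1 was higher (Lmod1) and none lower, where 26.1% of all tested genes rose and 24.8% fell. Smtn (46.5 and 47.6 CPM) and Des (33.5 and 37.5 CPM) made up most of that sum, and the other markers were low. The 10 fibroblast markers summed to 23.9 to 34.4 CPM in Control and 26.8 to 31.2 CPM in Rif1-KO, with 2 of 5 tested higher, Pdgfra and Twist1, and 1 lower, Thy1. Thy1, a large part of the Control sum, fell from 11.3 to 5.67 CPM. Pdgfra is also among the primitive endoderm markers that rose. The call of Twist1 was lost with DESeq2 (adjusted p = 0.0502) and in edgeR without Control replicate 1 (0.0601). Lum had 0 counts in all 6 libraries, and Col1a1 stood at 2.38 and 2.06 CPM.

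Genes whose pattern over the 6 libraries was most like that of a member were sought among 9812 tested genes of at least 10 CPM, by the Euclidean distance of log2 CPM after centring each gene on its Control mean. Nearest to Srf were Top2b (distance 0.0689), which encodes topoisomerase II beta, then Zik1 (0.089) and Zfhx3 (0.0933), both zinc finger genes. Nearest to Actb were Lysmd3 (0.05), Cul7 (0.0535), a cullin gene, and Zfp160 (0.0586). Nearest to Vcl were Mycbp2 (0.0641), Pik3ip1 (0.065) and Stx3 (0.0698), a syntaxin gene. None of these 9 genes is on the actin or SRF lists, and with 2 groups the distance rests mostly on the difference between them.

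Over all genes, those with a CArG box in the promoter window are given as a description only, chosen after the members' values were seen. Of 150 tested genes with a box, 52 rose (34.7%) and 28 fell (18.7%), against 26.5% and 26.3% of 9473 tested genes whose windows hold none. A rise of at least 1.5-fold was called for 18% of the former and 9.98% of the latter. The median log2 fold change was 0.06 with a box and −0.00017 without. The members with a box and a test, Srf, Actg1 and Vcl, are among the 150, and without them 49 of 147 rose (33.3%).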

How the data were processed

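Each of the 6 deposited tables holds whole-number read counts by gene, which the authors left unscaled. Per the submitters' processing notes, the tools include STAR (alignment) and featureCounts 1.6.2 (counting) and the build is mm9. The annotation, the strand option and the treatment of reads with several matches are not given there. The reference used here (GENCODE M21 and RefSeq, GRCm38) is another build and served for names, exon length, GC content, overlaps, shared 50-base stretches and promoter sequence. No position on it was joined to the counts by coordinate.

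Genes were tested on the deposited counts with edgeR 4.0.16 in R 4.3.3 (filterByExpr, TMM on the genes kept, quasi-likelihood test, group as the only term, all 6 libraries), with p-values adjusted over 14250 genes. The filter asks for about 1.09 CPM in 3 libraries. A log2 fold change carries its standard error and a CPM mean its SD. The fit was tested on simulated data. The alternatives used DESeq2 1.42.0, limma-voom from limma 3.58.1, other scaling and filters, a replicate block, an offset for GC content and length (known for 88.9% of tested genes), and fits without each library. Nothing says that replicates came from separate cultures, and the p-values then cover the spread of these libraries alone, which may be technical.

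The 10 genes and the 14 lists (180 symbols, 175 in the table, 153 tested) were chosen with earlier results of these data known, and lists share genes. Brk1, Myl12a, Ajuba, Tfap2c and Tfcp2l1, searched for under those symbols, are not analysed here. From each list the text names up to 4 genes past the threshold, lowest adjusted p first, or the 2 most expressed where none passed, and every SRF cofactor and actin paralogue. It also names the 3 tested genes most like each of Srf, Actb and Vcl. Of the genes this rule picks, 1 is not reported here. Other genes are named as paralogues of the 10, as overlapping or near-identical genes, or from the lists, and were mostly picked with their values known. A comparison of the actin protein sequences that had been planned was not made.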

Additional observations from a re-analysis of the deposited data

How the results depend on the processing

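The 8 genes that rose did so with an adjusted p under 0.05 under all 15 alternatives, and 8 members rose and none fell in each. Actn1 passed under none. Its log2 fold change ran from −0.017 to 0.054 when each library was left out, negative only without Control replicate 3. The replicate numbers did not pair the samples (same-numbered libraries correlated at 0.0961, −0.072 and 0.0542 in their deviations), and the replicate block gave 3779 genes higher and 3607 lower, against 3722 and 3529. For the ratio of Actb to Actg1, a sign-flip test of the paired differences gave −0.47 with an exact p of 0.25, the smallest possible with 3 pairs. Rif1, just short of the threshold, passed with RLE factors (−0.12), upper-quartile factors (−0.12), no filter (−0.12), limma-voom (−0.12), the replicate block (−0.12), the offset for GC content and length (−0.30) and both together (−0.30), and ran from −0.17 to −0.094 when each library was left out.

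Most list counts changed with the processing. Over the 15 alternatives, the genes that rose ran from 11 to 16 among MRTF-SRF targets, 6 to 8 among TCF-SRF targets and 9 to 14 among nucleators. They ran from 12 to 14 among focal adhesion genes, 4 to 5 among trophectoderm markers and 3 to 4 among embryonic stem cell markers. Moves that were large for the size of a small count were as follows. Without a filter, 1 SRF cofactor (Myocd) rose and 1 primitive endoderm marker fell. With a mean of at least 5 CPM, which leaves fewer genes, 0 smooth muscle, 0 fibroblast and 3 primitive endoderm markers rose and 1 crosslinker fell. With DESeq2, 0 smooth muscle markers and 1 fibroblast marker rose, and Twist1 was lost (adjusted p = 0.0502). With the offset, 2 smooth muscle markers rose, and with the replicate block added 2 smooth muscle markers rose and 1 MRTF-SRF target fell. With each library left out, smooth muscle markers that rose ran from 0 (without Control 1, Rif1-KO 2 or Rif1-KO 3) to 2 (without Control 2) and fibroblast markers from 1 (without Control 1) to 3. Genes that fell ran from 0 to 1 among MRTF-SRF targets (without Control 1 or Rif1-KO 3), 1 (without Control 2) to 4 among turnover genes, and 1 (without Control 2, Control 3 or Rif1-KO 2) to 2 among focal adhesion genes. The cause of these moves was not tested. Of 79 other genes followed, 76 kept their call under every alternative run, and Lmod1, Twist1 and Tpm3 did not. Depth limits the muscle actins, Myl9 and Myocd, which had at most 17 counts per group.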
